A study of Mus musculus with 14 samples.

Results

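The miR-99/100 and miR-125 families were followed across 4 cell populations sorted from the mouse mammary gland. The members were 7 of the 584 miRNA assays in the normalized matrix and were chosen by name once the final assay number was removed: mmu-miR-99a, mmu-miR-99b, mmu-miR-100, mmu-miR-125a-5p, mmu-miR-125a-3p, mmu-miR-125b-5p and mmu-miR-125b-3p, without the passenger-strand assays that carry an asterisk. The prefix mmu (mouse) is left out from here on. Cells came from freshly dissociated glands of adult FVB/N mice that had received no treatment, and each sample was a pool of mice whose number is not given in the sources used here. The populations were MaSC/basal cells (CD29hi CD24+, 4 samples), luminal progenitors (CD29lo CD24+ CD61+, 3 samples), mature luminal cells (CD29lo CD24+ CD61-, 3 samples) and stroma (CD29- CD24-, 4 samples). The MaSC/basal gate is a mixture, since it collects contractile myoepithelial cells along with the stem cells of the gland and, as the study takes it, possible basal progenitors. Epithelial samples 1, 2 and 3 of each population came from mouse pools 1, 2 and 3, the fourth MaSC/basal sample came from pool 4, and all 4 stromal samples came from pool 5. Population and pool therefore cannot be told apart for stroma, and p-values for stroma measure only the spread between these samples.

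A miRNA guides a silencing complex to messenger RNAs that pair with its seed, the bases near its 5′ end, so miRNAs with the same seed can share targets while being made at different loci. In mammals the miR-99/100 and miR-125 families sit together in 3 paralogous clusters, each with a let-7 gene between a miR-99/100 gene and a miR-125 gene. The miR-99/100 family is known for repressing the growth regulator mTOR, and miR-125b is known from work on differentiation, apoptosis and blood stem cells. Each precursor hairpin is cut into a 5p and a 3p arm, of which one usually accumulates as the guide strand and the other, the passenger strand, is mostly degraded.

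The mature sequences are shown because the seed groups them differently from the clusters. Sequences are from RefSeq (GRCm38.p6), all 7 assays were matched by miRNA name, and capitals mark the seed, bases 2 to 8 counted from the 5′ end. The last sequence, miR-351, is not a member but has the seed of the miR-125 5p arms.
miR-99a: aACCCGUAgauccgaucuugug
miR-100: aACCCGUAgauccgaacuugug
miR-99b: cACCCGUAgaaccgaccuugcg
miR-125a-5p: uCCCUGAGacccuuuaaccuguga
miR-125b-5p: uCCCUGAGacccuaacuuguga
miR-125a-3p: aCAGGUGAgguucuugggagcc
miR-125b-1-3p: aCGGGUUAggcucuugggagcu
miR-125b-2-3p: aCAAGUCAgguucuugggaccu
miR-351: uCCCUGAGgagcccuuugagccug

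The 3 miRNAs of the miR-99/100 family shared 1 seed. Over their 22 bases, miR-99a and miR-100 differed by the single substitution U16A, and miR-99a and miR-99b by A1C, U11A, U16C and U21C (miR-99a first, positions from the 5′ end). The 5p arms of miR-125a and miR-125b were identical over their first 13 bases, and with miR-351 they shared a second seed. The 3p arms had seeds of their own. No other measured miRNA had the seed of a member, and 2 further miRNAs in the table with the miR-125 seed, miR-6367 and miR-6394, were not on the array.

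The loci placed the members in 3 clusters, all on the + strand. The miR-100 cluster held Mir100 (mature sequence chr9:41531437-41531458), a let-7a gene 5.34 kb downstream and Mir125b-1 (chr9:41581940-41581961) 50.5 kb downstream, all within the span of the noncoding gene Mir100hg. The miR-99a cluster held Mir99a (chr16:77598940-77598961), let-7c-1 at 0.732 kb and Mir125b-2 (chr16:77646279-77646300) at 47.3 kb, with no other annotated gene spanning them in the table used. The miR-99b cluster was compact, with Mir99b (chr17:17830194-17830215), let-7e at 0.172 kb and Mir125a (chr17:17830817-17830840) at 0.623 kb, within the span of the protein-coding gene Spaca6. The 5p arm of miR-125b is the same sequence at both of its loci, so its assay cannot tell Mir125b-1 from Mir125b-2. The sources used here do not say which locus the miR-125b-3p assay reads. The hairpins of Mir125a (chr17:17830812-17830879) and Mir125b-1 (chr9:41581926-41582002) are printed with both mature arms in capitals, the 5p arm first, because the arms of each were compared.
Mir125a: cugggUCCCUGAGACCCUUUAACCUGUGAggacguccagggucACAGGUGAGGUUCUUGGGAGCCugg
Mir125b-1: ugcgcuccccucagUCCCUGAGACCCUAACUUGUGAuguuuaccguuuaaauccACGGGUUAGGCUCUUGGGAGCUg

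**Figure D1:**
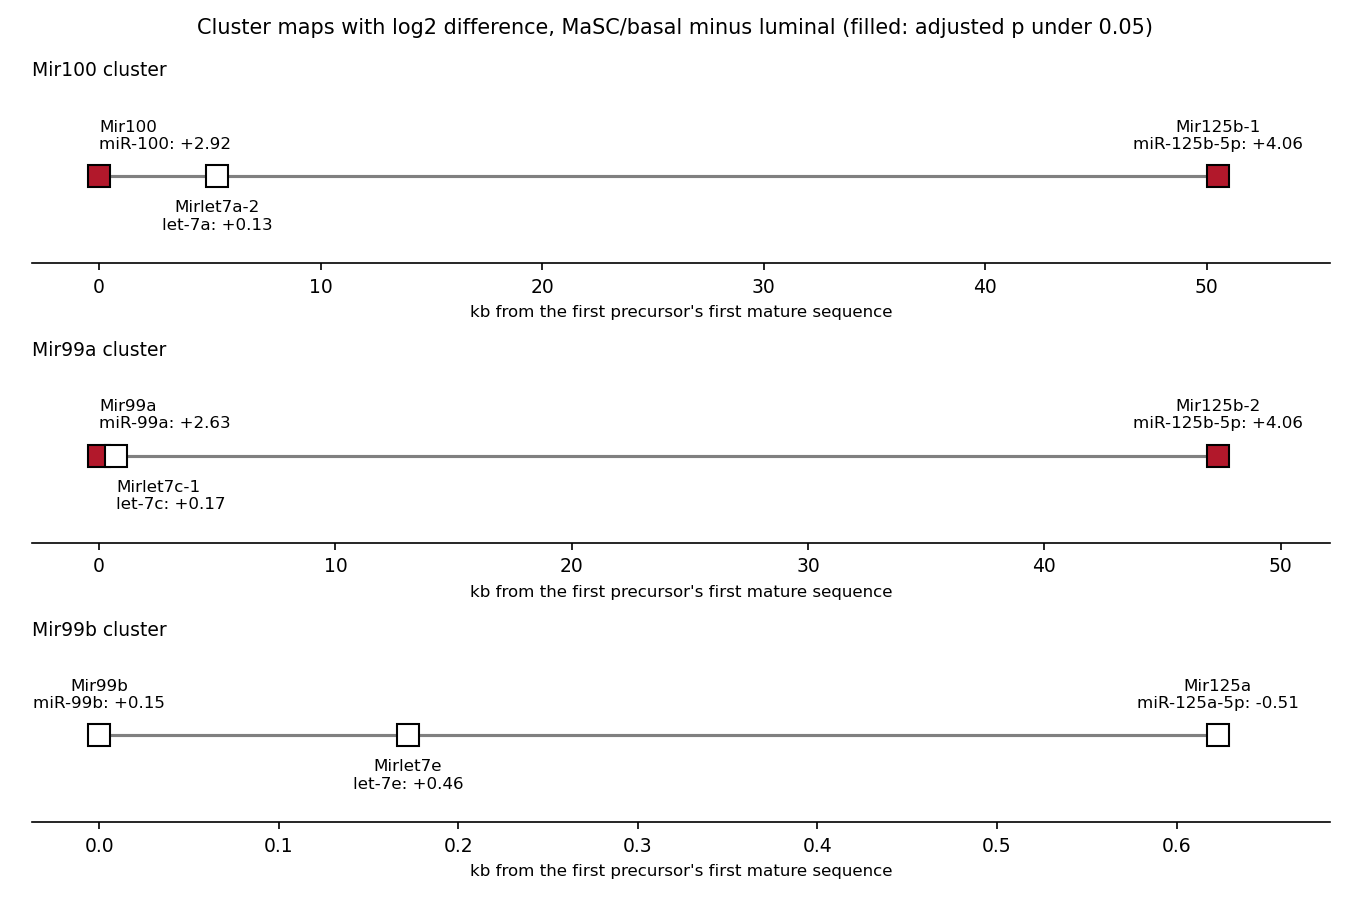
Maps of the 3 clusters, with the distance in kb from the first precursor's first mature sequence on the horizontal axis (a different scale in each map) and, at each precursor (square), the log2 difference of its assay between MaSC/basal and luminal samples. Filled squares mark an adjusted p under 0.05 in limma; the outer genes of the miR-100 and miR-99a clusters are filled and no gene of the miR-99b cluster is, although the signs of miR-99b and miR-125a-5p turn under other scalings. The let-7a, let-7c and miR-125b-5p assays each read more than one locus.

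Levels are the authors' normalized log2 values, in which 1 unit is a doubling. They derive from the cycle threshold (Ct) of real-time PCR on 2 array plates, with a Ct of 40 for a reaction that never crossed the threshold. All 7 members were on plate A, all had a Ct below 40 in all 14 samples, and all passed the filter on low values with 459 of the 584 probes. Epithelial samples had 338 to 366 detected assays and stromal samples 448 to 454. Assays differ in efficiency, so levels are compared between samples and not between miRNAs. Fewer cells of a type and less RNA per cell cannot be told apart in sorted bulk samples.

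One library went against its label. The library labelled MaSC/basal 4 had a summed log2 level of the smooth muscle and myoepithelial markers miR-143 and miR-145 (both measured and detected) of 22.10, against 28.29 to 29.42 in the other 3 MaSC/basal samples, 23.59 to 24.00 in luminal progenitors and 22.14 to 22.84 in mature luminal cells. The other epithelial libraries showed the myoepithelial markers high in MaSC/basal samples, and stroma was low for the 5 epithelial markers of the miR-200 family (20.62 to 21.56, against 26.79 to 28.35 in epithelium). Tests were run over the other 13 samples, and values over all 14 are named as such where they are given. The tests were planned without this library because the study's heatmap leaves it out. The study's text gives no remark on it.

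The 4 members of the miR-100 and miR-99a clusters were far higher in MaSC/basal than in luminal cells, and none of the 3 members of the miR-99b cluster was called over these 13 samples with the deposited normalization. miR-125b-5p was 16.7-fold higher in MaSC/basal samples, miR-100 7.56-fold, miR-99a 6.19-fold and the second arm, miR-125b-3p, 234-fold. The last of these rested in part on mature luminal 1, without which its log2 difference of 7.87 was 7.18. In all, 4 of 7 members were called at an adjusted p of 0.05, all higher in MaSC/basal samples, against 40.3% of all probes tested that were called in either direction and 23.1% called higher. Among the probes of plate A alone, the plate of all members, 50.3% were called. The median log2 difference was 2.63 over the 7 members and 0.14 over all probes.

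miR-125b-5p, the guide strand of both miR-125b hairpins, stood at 24.57, 25.32 and 24.64 in the 3 MaSC/basal samples. It was 21.30, 21.56 and 21.48 in luminal progenitors and 20.01, 20.42 and 19.95 in mature luminal cells. The populations did not overlap and fell in the order MaSC/basal, luminal progenitor, mature luminal. The MaSC/basal samples exceeded the mean of the luminal populations by 4.06 (SE 0.19, adjusted p = 2.7e-08, limma). The library labelled MaSC/basal 4 stood at 19.84, below all 13 others, and with it the difference was 2.81 (adjusted p = 0.031).

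miR-100, encoded upstream of Mir125b-1, was 22.01, 22.61 and 22.46 in MaSC/basal samples. Luminal progenitors had 19.72, 20.05 and 19.87 and mature luminal cells 18.72, 19.04 and 19.25. The order of populations was that of miR-125b-5p, again with no overlap. The difference between MaSC/basal and luminal cells was 2.92 (SE 0.21, adjusted p = 7.8e-07), or 2.05 (adjusted p = 0.028) with the library labelled MaSC/basal 4, which stood at 18.90.

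miR-99a, which differs from miR-100 by 1 base and is encoded upstream of Mir125b-2, was 21.84, 22.60 and 22.20 in MaSC/basal samples. It was 19.81, 20.12 and 20.16 in luminal progenitors and 18.78, 19.09 and 19.53 in mature luminal cells, without overlap. Its difference between MaSC/basal and luminal cells was 2.63 (SE 0.22, adjusted p = 2.8e-06). The library labelled MaSC/basal 4 had 18.86, and with it the difference was 1.79 (adjusted p = 0.047).

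miR-125b-3p, the other arm of a miR-125b hairpin, had the widest range. It was 15.85, 16.27 and 15.82 in MaSC/basal samples, at Ct values of 24.0 to 25.7. Luminal progenitors had 9.24, 9.46 and 10.65, and mature luminal cells 3.70, 7.34 and 8.30, where Ct values of 32.5 to 37.3 lie close to the limit of 40. The lowest of these, mature luminal 1, sets much of the spread of that population (SD 2.43, n = 3). The difference between MaSC/basal and luminal cells was 7.87 (SE 0.80, adjusted p = 1.3e-05), and it was 7.57 (adjusted p = 7.0e-07) with values under 5.5 raised to 5.5. In the library labelled MaSC/basal 4 the level was 2.71 (Ct 38.8), and with it the difference was 4.55 and not called (adjusted p = 0.19).

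The miR-99b cluster showed another pattern. miR-99b had the seed of miR-99a and miR-100 but stood at 20.61, 20.86 and 20.90 in MaSC/basal samples, 20.07, 20.10 and 20.37 in luminal progenitors and 21.30, 21.44 and 20.56 in mature luminal cells. Its MaSC/basal levels lay above all luminal progenitor samples and within the range of mature luminal samples. The difference between MaSC/basal and luminal cells was 0.15 (95% interval -0.32 to 0.62, adjusted p = 0.63), and its sign turned without normalization and under median centring.

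miR-125a-5p, with the seed of miR-125b-5p, was 22.84, 21.88 and 22.15 in MaSC/basal samples, 22.44, 22.39 and 22.80 in luminal progenitors and 23.01, 23.38 and 22.80 in mature luminal cells. MaSC/basal samples overlapped both luminal populations. The difference between MaSC/basal and luminal cells was -0.51 (95% interval -1.0 to -0.02, adjusted p = 0.094), and its sign turned with U6 alone as the reference (0.05). It was called, lower in MaSC/basal samples, under median centring (-1.12, adjusted p = 0.0035) and without MaSC/basal 1 (-0.79, adjusted p = 0.011, limma). Its other arm, miR-125a-3p, was 16.73, 16.72 and 16.54, then 16.10, 16.03 and 16.21, then 16.88, 16.53 and 16.70 in the same order of populations. Luminal progenitors lay below all samples of the other epithelial populations, and the difference between MaSC/basal and luminal cells was 0.25 (95% interval -0.09 to 0.60, adjusted p = 0.25). With U6 alone it was 1.36 and called (adjusted p = 0.0019), under a scaling that moved the median of all probes by 0.73. The library labelled MaSC/basal 4 lay within the range of the other epithelial samples for these assays, at 20.26 for miR-99b, 22.68 for miR-125a-5p and 16.69 for miR-125a-3p.

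**Figure D2:**
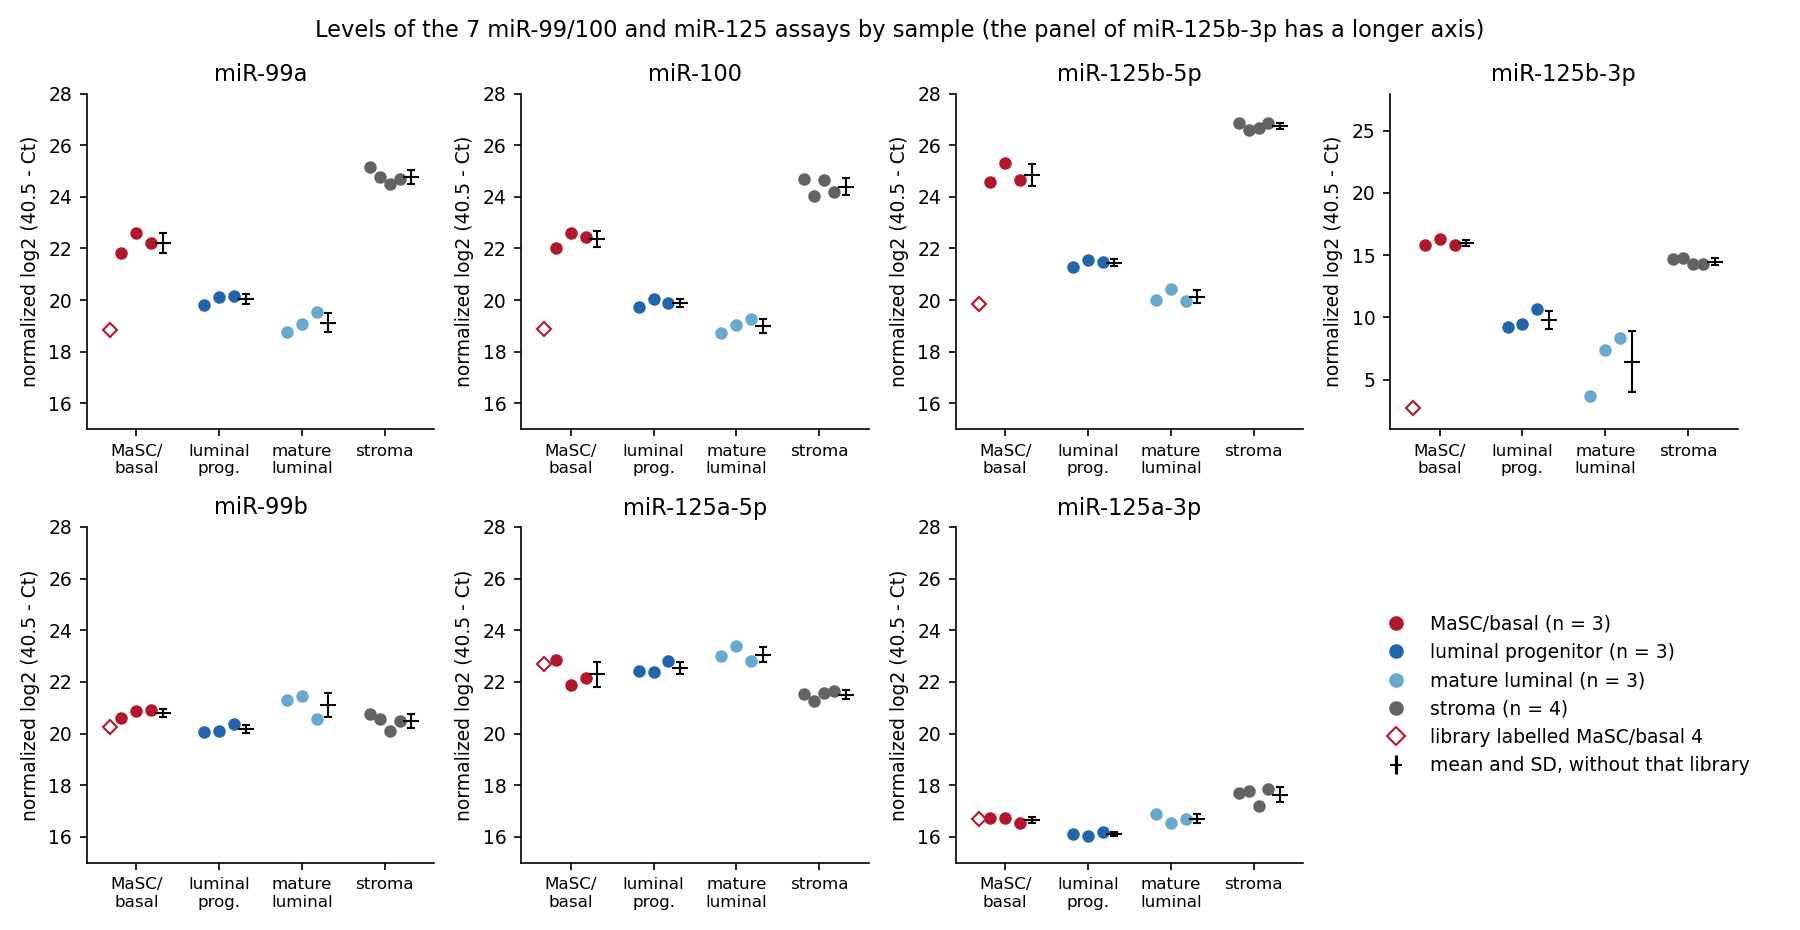
Normalized log2 level of each member in each sample (points), with the mean and SD per population without the library labelled MaSC/basal 4 (open diamond). The vertical axis runs from 15 to 28 except for miR-125b-3p, whose axis is longer. miR-99a, miR-100 and miR-125b-5p step down from stroma through MaSC/basal and luminal progenitor to mature luminal samples, and the 3 members of the miR-99b cluster stay within narrow bands.

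The same contrast split the seed families. Within each sample, miR-99a minus miR-99b was 1.23, 1.74 and 1.30 in MaSC/basal samples and between -2.52 and 0.02 in the 6 luminal samples, so miR-99a gained 2.48 on miR-99b (exact two-sided permutation p = 0.024, adjusted p = 0.037 over 20 tests of pairs). miR-100 gained 2.77 on miR-99b with the same p-values. miR-125b-5p minus miR-125a-5p was 1.73, 3.44 and 2.49 in MaSC/basal samples and at most -0.83 in luminal samples, a gain of 4.57, also with these p-values. A p of 0.024 is the smallest that 3 against 6 samples allow. The permutations exchanged samples freely between mouse pools, so these p-values take no account of the pools that MaSC/basal and luminal samples share. Leaving out any 1 of the 6 luminal samples gave adjusted p-values of 0.051 to 0.055 for the 8 pair differences called, since 3 against 5 samples cannot give a p below 0.036. With the library labelled MaSC/basal 4 the gains of miR-99a over miR-99b and of miR-125b-5p over miR-125a-5p were 1.77 and 3.22, and neither passed (both adjusted p = 0.087, exact permutation). A scaling that moves all assays of a sample together cancels in such differences. The cyclic loess of the deposited values need not cancel, since it can move assays of different level by different amounts.

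The assays of miR-99a and miR-100, which are made at separate loci and differ by 1 base, gave nearly the same profile. Whether each assay reads only its own miRNA was not tested. miR-100 minus miR-99a was 0.17, 0.01 and 0.26 in MaSC/basal samples and -0.30 to -0.05 in luminal samples. The shift of 0.29 was small but without overlap (exact permutation p = 0.024, adjusted p = 0.037), and it was 0.26 and still called with the library labelled MaSC/basal 4 (adjusted p = 0.033). Relative to miR-125b-5p, their downstream neighbour, both were lower in MaSC/basal than in luminal samples, with shifts of -1.43 for miR-99a and -1.14 for miR-100 (exact permutation, adjusted p = 0.037 for each). These shifts were -1.02 and -0.75 over 14 samples and were not called (adjusted p = 0.095 and 0.1, exact permutation). Over the 13 samples, the root mean square distance between centred profiles was 0.28 between miR-99a and miR-100, 0.64 and 0.60 between each of them and miR-125b-5p, and 0.61 between miR-99b and miR-125a-5p. From miR-99b to its seed mates it was 2.41 (miR-99a) and 2.33 (miR-100), and from miR-125a-5p to miR-125b-5p it was 3.28. The profiles of miR-99b and miR-125a-5p were thus closer to each other than to those of their seed mates. This closeness was not particular to their cluster. Assays from other loci lay nearer still, such as miR-101a to miR-99b (0.28) and miR-345-5p to miR-125a-5p (0.29).

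The 5p and 3p assays of miR-125b did not keep a fixed ratio between the epithelial populations. miR-125b-5p minus miR-125b-3p was 8.71, 9.05 and 8.82 in MaSC/basal samples. It was 12.06, 12.10 and 10.83 in luminal progenitors and 16.31, 13.08 and 11.65 in mature luminal cells. The gap was smaller in MaSC/basal than in luminal samples, with a shift of -3.81 (exact permutation p = 0.024, adjusted p = 0.037). The shift was -1.74 with the library labelled MaSC/basal 4, whose gap was 17.13, and was then not called (adjusted p = 0.44, exact permutation). In all 6 luminal samples the 3p arm had a Ct above 31, from 31.3 to 37.3, so the luminal gap rests on late cycles. The 5p arm can come from both hairpins and the locus of the 3p assay is not known, so this gap need not be that of 1 hairpin.

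For miR-125a, which has 1 locus, the 5p minus 3p difference was 6.10, 5.17 and 5.61 in MaSC/basal samples. Luminal samples had 6.10 to 6.85, touching the upper MaSC/basal sample. The shift of -0.77 did not pass (exact permutation p = 0.048, adjusted p = 0.068), and it did pass without normalization (-1.31, adjusted p = 0.034) and with cyclic loess on each plate (-0.87, adjusted p = 0.034).

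**Figure D3:**
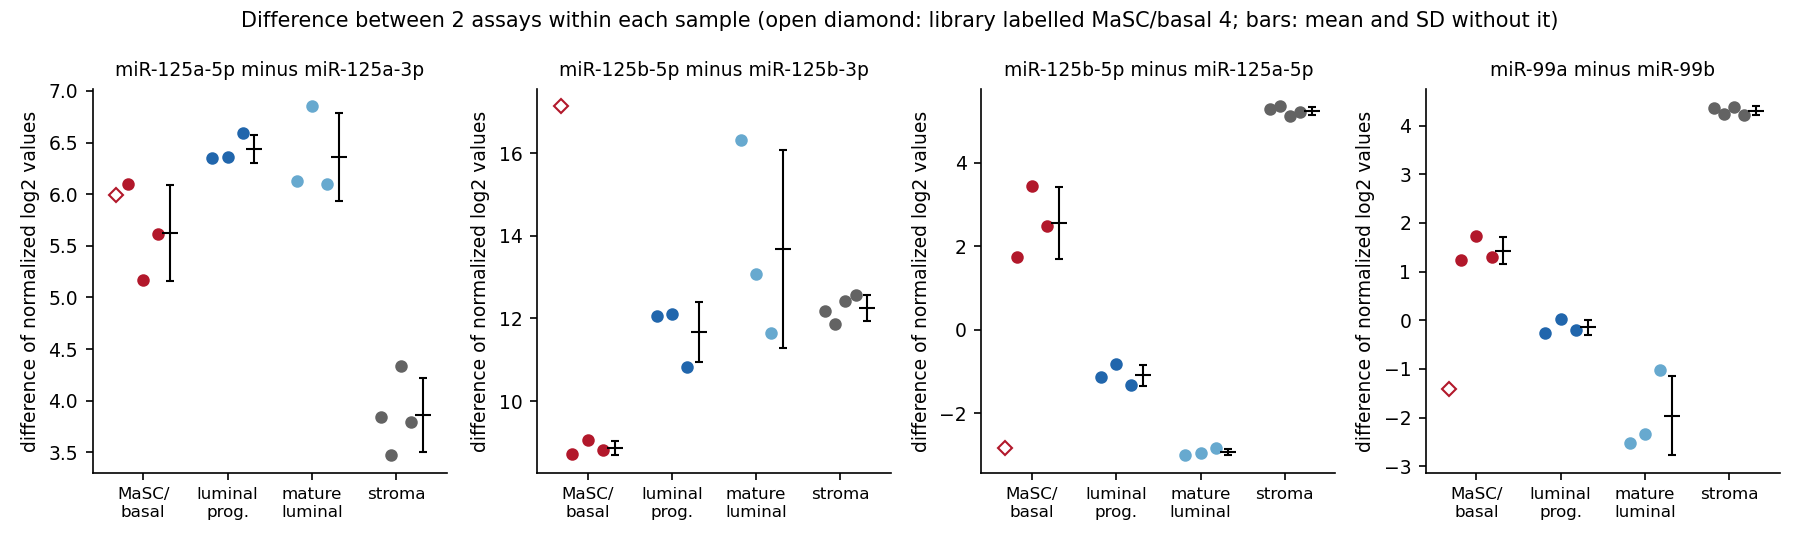
Difference of normalized log2 values between 2 members within each sample (points), with mean and SD per population, for the arms of miR-125a, the arms of miR-125b, the miR-125 5p paralogs and miR-99a against miR-99b. Stroma has the smallest miR-125a arm difference (3.47 to 4.34), MaSC/basal the smallest miR-125b arm difference (8.71 to 9.05), and the open diamond is the library labelled MaSC/basal 4.

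Each luminal population was also set against MaSC/basal samples, which both comparisons share. In luminal progenitors 5 of 7 members were called, all lower, against 36.6% of all probes called and 20.7% called lower. miR-125b-5p was 10.5-fold lower, miR-100 5.58-fold, miR-99a 4.53-fold and miR-125b-3p 73.5-fold (adjusted p from 3.8e-07 to 0.00026, limma). miR-125a-3p was 1.46-fold lower (log2 difference -0.55, SE 0.18, adjusted p = 0.035). This last call held under 17 of 23 alternatives on the 13 samples, with an adjusted p of up to 0.1 (limma). In mature luminal cells 5 of 7 were called, against 35.9% of all probes. The same 4 members of the miR-100 and miR-99a clusters were lower, miR-125b-5p by 26.3-fold, miR-100 by 10.3-fold, miR-99a by 8.44-fold and miR-125b-3p by 742-fold, and miR-125a-5p was higher by 1.71-fold (SE of the log2 difference 0.25, adjusted p = 0.035). The miR-125b-3p difference rested in part on mature luminal 1, the sample at Ct 37.3. It was -9.54 with that sample, -8.16 without it and -8.94 with the floor of 5.5, on the log2 scale, and was called in each. With mouse pool as a block the call of miR-125a-5p was lost (adjusted p = 0.1, limma). Over 14 samples miR-125a-3p was the 1 member still called for luminal progenitors, and miR-99a, miR-100 and miR-125b-5p were those called for mature luminal cells.

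Between the luminal populations the called members of the miR-100 and miR-99a clusters moved opposite to those of the miR-99b cluster. In mature luminal relative to luminal progenitor cells, 6 of 7 members were called, 4 lower and 2 higher, against 22.0% of all probes, 11.1% lower and 10.9% higher. miR-125b-5p was 2.5-fold lower (log2 difference -1.32, SE 0.22, adjusted p = 0.002), miR-99a 1.86-fold (adjusted p = 0.028), miR-100 1.84-fold (adjusted p = 0.023) and miR-125b-3p 10.1-fold (adjusted p = 0.024). The log2 difference of miR-125b-3p, -3.34, was -1.96 without mature luminal 1 (adjusted p = 0.015) and -2.74 with the floor of 5.5 (adjusted p = 0.0081). miR-99b was higher by 1.89-fold (SE of the log2 difference 0.24, adjusted p = 0.02) and miR-125a-3p 1.51-fold (adjusted p = 0.037). miR-125a-5p, at 0.52 (95% interval -0.04 to 1.08), was not called (adjusted p = 0.19). The called members did not overlap between the 2 populations. The share of all probes without overlap is not given here, so this is no result about the members.

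The directions of these luminal differences held under all 24 alternatives, and the calls did not. Over 14 samples 0 of 7 were called by limma (2 at an unadjusted p under 0.05), where the library labelled MaSC/basal 4 enters the spread that all populations share. Without normalization 2 were called, and 1 with U6 alone. With mouse pool as a block, miR-99b (adjusted p = 0.07) and miR-125b-3p (adjusted p = 0.067) lost their calls and 4 members were called (limma). Leaving out mature luminal 1, mature luminal 2, luminal progenitor 2 or luminal progenitor 3 left 2, 3, 1 and 2 members called. Within samples, miR-99a minus miR-99b was -0.26, 0.02 and -0.21 in luminal progenitors and -2.52, -2.34 and -1.03 in mature luminal cells, without overlap, and 3 samples against 3 cannot give an exact two-sided p below 0.1.

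**Figure D4:**
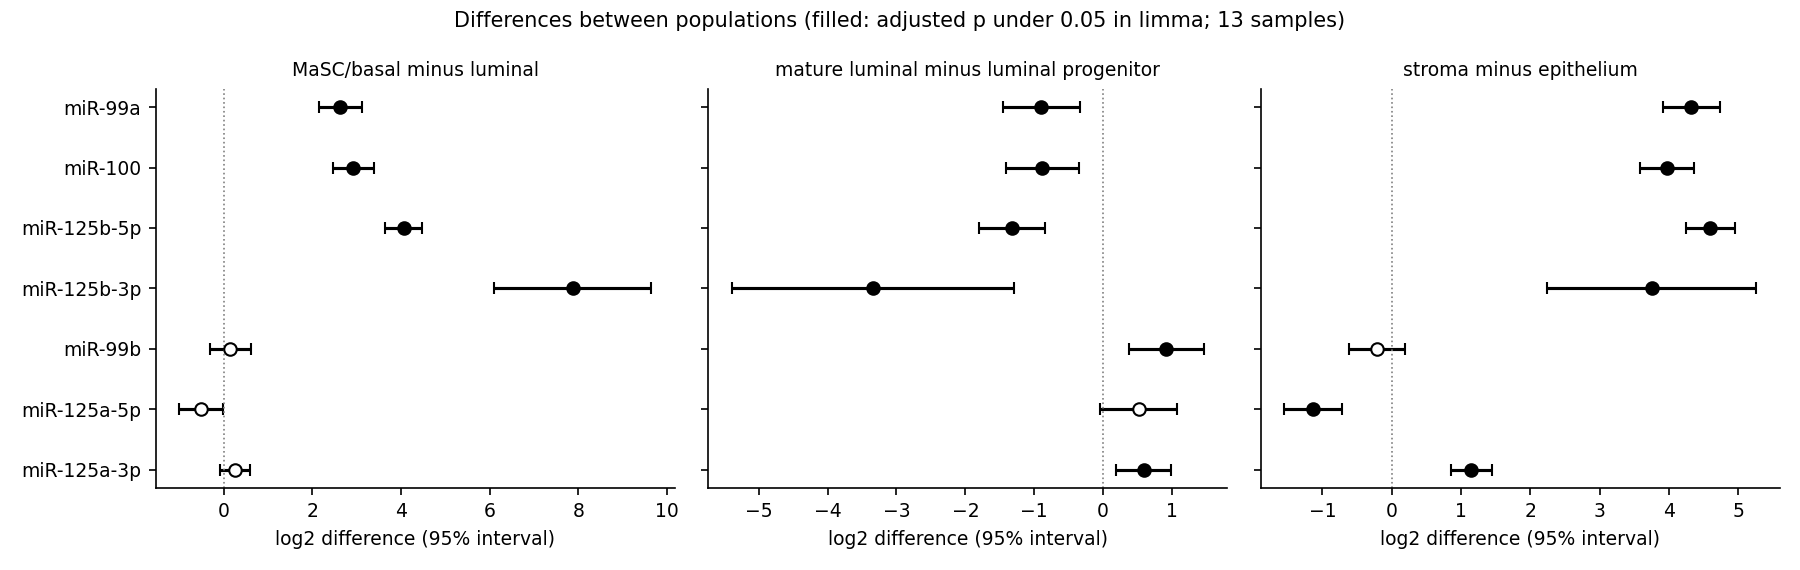
Log2 difference of each member in 3 comparisons, with 95% intervals from limma over 13 samples, filled where the adjusted p was under 0.05. Members of the miR-100 and miR-99a clusters (upper 4) lie to the right in MaSC/basal and in stroma and to the left in mature luminal cells; the intervals of miR-99b and miR-125a-5p lie near 0 between MaSC/basal and luminal samples, where their signs turn under other scalings.

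Across the 3 epithelial populations, 6 of 7 members were called by the F-test, against 44.4% of all probes, and miR-125a-5p was not (adjusted p = 0.068, limma), although it was without normalization (adjusted p = 0.049), under median centring (adjusted p = 0.0067) and without MaSC/basal 1 (adjusted p = 0.0097). With mouse pool as a block miR-99b was not called (adjusted p = 0.087), and over 14 samples miR-100, miR-125a-3p and miR-125b-5p were called, 3 in all.

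Stroma had the highest levels of the guide strands of the miR-100 and miR-99a clusters. In stroma relative to epithelium 6 of 7 members were called, 5 higher and 1 lower, but so were 81.7% of all probes, with 47.9% higher and 33.8% lower, and the count is no result about the members. The median log2 difference was 3.75 over the members, 0.62 over all probes and -0.13 over the probes of plate A, which holds all members. Among the higher members miR-125b-5p was raised 24.2-fold (SE of the log2 difference 0.16, adjusted p = 1.5e-10), miR-99a 20-fold, miR-100 15.7-fold and miR-125b-3p 13.4-fold. Over the alternatives on the 13 samples the log2 differences ran from 3.05 to 4.87, 3.07 to 4.89, 2.76 to 4.58 and 3.29 to 6.71, in the same order. Over 14 samples those of the 3 guide strands were 5.02, 4.60 and 4.26 (adjusted p from 8.4e-06 to 8.8e-05, limma).

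In the 4 stromal samples miR-125b-5p was 26.84, 26.59, 26.67 and 26.85, at Ct values of 13.0 to 14.1. miR-99a was 25.14, 24.78, 24.51 and 24.69, and miR-100 was 24.68, 24.03, 24.66 and 24.17. All exceeded the highest epithelial sample. Against MaSC/basal cells alone, with 76.9% of all probes called, 5 of 7 members were called. miR-99a was 5.94-fold higher, miR-100 4.07-fold and miR-125b-5p 3.72-fold (adjusted p from 1.8e-06 to 8.1e-06, limma). On the log2 scale these differences were 2.57, 2.02 and 1.89, and with the library labelled MaSC/basal 4 they were 3.41, 2.89 and 3.14 (adjusted p from 0.00051 to 0.0094). The order of levels for these guide strands was thus stroma, MaSC/basal, luminal progenitor, mature luminal, with each step called over 13 samples as deposited. The size of the last step depended on the processing. Over the alternatives on the 13 samples it shrank to -0.23 for miR-99a, -0.20 for miR-100 and -0.73 for miR-125b-5p. It was called in 16, 17 and 21 of these 23 alternatives (limma).

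miR-125b-3p did not keep that order. Its stromal levels of 14.66, 14.74, 14.26 and 14.28 lay below the 3 MaSC/basal samples and above all luminal samples. The difference from MaSC/basal was -1.50 (95% interval -3.41 to 0.42, adjusted p = 0.14). The same value was called with the floor of 5.5 (adjusted p = 0.034) and without mature luminal 1 (adjusted p = 0.0035). The difference was 0.98 without normalization, 0.44 with U6 alone and 1.82 over 14 samples, none of them called, so no order between stroma and MaSC/basal cells is read from it. miR-125b-3p was 26-fold higher in stroma than in luminal progenitors and 263-fold higher than in mature luminal cells, where 80.0% and 78.2% of all probes were called, and 6 and 7 of the 7 members. Its log2 difference from mature luminal cells, 8.04, was 6.67 without mature luminal 1 and 7.44 with the floor of 5.5. The size of both folds depended on the scaling: the log2 differences were 4.70 and 8.04 as deposited, 8.07 and 10.64 without normalization and 8.37 and 11.33 with U6 alone, and all were called. Over 14 samples its difference from luminal progenitors was not called (adjusted p = 0.14), nor that from epithelium (4.85, adjusted p = 0.054).

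With the deposited normalization the arms of miR-125a moved in opposite directions in stroma. miR-125a-5p was 21.55, 21.25, 21.56 and 21.64, below all epithelial samples, and miR-125a-3p was 17.71, 17.77, 17.21 and 17.84, above all of them. The 5p arm was 2.2-fold lower (log2 difference -1.13, SE 0.19, adjusted p = 0.00017) and the 3p arm 2.21-fold higher (1.14, SE 0.13, adjusted p = 1.0e-05) than in epithelium. Within samples the 5p minus 3p difference was 3.84, 3.47, 4.34 and 3.79 in stroma and at least 5.17 in all 9 epithelial samples, a shift of -2.28 (exact permutation p = 0.0028, adjusted p = 0.014). A p of 0.0028 is the smallest that 4 against 9 samples allow, and the shift was -2.26 with the library labelled MaSC/basal 4. The lower level of the 5p arm lost its call without normalization (-0.58, adjusted p = 0.16) and with U6 alone (-0.43, adjusted p = 0.11). Against MaSC/basal cells alone, its difference without normalization was 0.08 (adjusted p = 0.87, limma). The higher 3p arm was called under all 22 alternatives. Its log2 difference ran from 0.92 with median centring to 2.60 without normalization and 2.74 with U6 alone.

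miR-99b was 20.77, 20.55, 20.12 and 20.47 in stroma, inside the epithelial range, and its difference from epithelium was not called (log2 difference -0.21, 95% interval -0.61 to 0.19, adjusted p = 0.3). Its sign turned without normalization (0.61) and with U6 alone, where miR-99b was called higher in stroma (0.76, adjusted p = 0.031), while under median centring it was called lower (-1.06, adjusted p = 0.0002), so no direction is read from it. With mouse pool as a block its lower level in stroma than in mature luminal cells was not called (log2 difference -0.62, adjusted p = 0.063 against 0.028 without the block, limma). The difference within each seed family also shifted in stroma. miR-99a minus miR-99b was 4.37, 4.24, 4.39 and 4.22, all above the epithelial range of -2.52 to 1.74, and miR-125b-5p minus miR-125a-5p was 5.30, 5.35, 5.11 and 5.21, above all epithelial samples, of which the highest had 3.44 (shifts of 4.53 and 5.73, exact permutation p = 0.0028 and adjusted p = 0.014 for each). Within the miR-99b cluster, miR-99b gained 0.92 on miR-125a-5p in stroma (exact permutation p = 0.014, adjusted p = 0.037), a call that was lost in 9 of 13 fits that left out 1 sample, with shifts of 0.82 to 1.06. The 5p minus 3p difference of miR-125b in stroma, 12.25 ± 0.31 (SD, n = 4), lay inside the epithelial range of 8.71 to 16.31 as deposited (exact permutation p = 0.54). Without normalization it was 9.93 to 10.71, below all luminal samples and above the tested MaSC/basal samples. Its place among the epithelial populations thus depended on the scaling.

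Markers of mesenchymal cells were highest in stroma, as the guide strands were. The summed log2 level of 4 measured fibroblast markers of a list of 5 (miR-199a-3p, miR-199a-5p, miR-214 and miR-152) was 26.68 to 27.07 in stroma, 22.17 to 22.92 in MaSC/basal samples, 22.01 to 22.18 in luminal progenitors and 20.80 to 21.45 in mature luminal cells. It was 20.78 in the library labelled MaSC/basal 4, the lowest of all, with miR-199a-5p undetected there, and all 4 were detected in each population. Within the epithelium the sums of MaSC/basal samples and luminal progenitors overlapped, and the sum was mostly miR-152. miR-199a-3p reached 18.77 in MaSC/basal samples and 18.75 in luminal progenitors, with overlapping values, and miR-214 was 16.99, 16.44 and 16.65 against 16.97, 17.02 and 17.84. The smooth muscle and myoepithelial markers were 26.18 to 26.45 in stroma, below MaSC/basal and above luminal samples. Endothelial markers (miR-126 arms, both measured) were 23.03 to 23.88 in stroma and 23.24 to 24.78 in epithelium. The part of mesenchymal or myoepithelial cells in these differences was not tested.

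Partners from the same clusters were measured by other assays. let-7c, a mature miRNA also made at a second locus, did not follow miR-99a between the epithelial populations. In stroma it was 2.26-fold higher than in epithelium (adjusted p = 0.0023, limma), where 81.7% of all probes were called. It was 26.24 ± 0.49 (SD, n = 3) in MaSC/basal samples, 26.09 ± 0.31 in luminal progenitors then 26.07 ± 0.81 in mature luminal cells, with a log2 difference of 0.17 between MaSC/basal and luminal cells (adjusted p = 0.73, limma). Its passenger strand let-7c-1*, by its name that of Mirlet7c-1 next to Mir99a, was 14.21, 14.36 and 14.16 in MaSC/basal samples and 11.46 to 12.59 in luminal samples. let-7c-1* was thus 4.57-fold higher in MaSC/basal samples (SE of the log2 difference 0.21, adjusted p = 7.1e-06), as miR-99a was. A rat assay for the passenger strand of miR-99a was 13.48, 14.32 and 15.21 in MaSC/basal samples and 9.79 to 12.40 in luminal samples, 8.66-fold higher (adjusted p = 0.00015). Both passenger strands were low in the library labelled MaSC/basal 4, at 11.73 and 11.32, and over 14 samples the log2 differences were 1.56 and 2.36 (adjusted p = 0.028 and 0.019, limma). let-7a is made next to miR-100 and elsewhere, and the name of the let-7a* assay does not give the locus. let-7a* was 12.80, 12.97 and 12.88 in MaSC/basal samples and 12.12 to 13.73 in luminal samples (log2 difference 0.12, adjusted p = 0.76). A rat assay for let-7e*, from the miR-99b cluster, was 11.97, 12.68 and 11.38 in MaSC/basal samples and 10.05 to 11.54 in luminal samples, 2.21-fold higher with overlapping values (adjusted p = 0.036). This call was lost over 14 samples (log2 difference 0.73, adjusted p = 0.28), with loess by plate (0.78, adjusted p = 0.15), over the 9 epithelial samples alone (adjusted p = 0.08) and when MaSC/basal 1, MaSC/basal 2 (0.81), mature luminal 3, luminal progenitor 3 or stroma 4 was left out.

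let-7e followed miR-99b more closely than any other of 297 assays detected in all 13 samples, at a root mean square distance of 0.19. It was 26.13 ± 0.12 in MaSC/basal samples, 25.21 ± 0.13 in luminal progenitors then 26.14 ± 0.44 in mature luminal cells (SD, n = 3 each), and 1.9-fold higher in mature luminal than in luminal progenitor cells (adjusted p = 0.013), a call lost over 14 samples (adjusted p = 0.19) and with U6 alone (adjusted p = 0.054). Over the 9 let-7 and miR-98 guide-strand assays, 1 was called between MaSC/basal and luminal cells, against 40.3% of all probes, and the median difference was 0.13, against 0.14 over all probes.

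With the deposited normalization, the passenger strand of miR-99b was lower in stroma and those of some other cluster members were higher, all read on plate B. miR-99b* was 15.39, 15.49, 15.54 and 15.59 in stroma and 18.93 to 19.62 in the 9 epithelial samples, 13.2-fold lower (log2 difference -3.72, SE 0.13, adjusted p = 2.0e-10), while miR-99b itself was inside its epithelial range. The lower level of miR-99b* was called under all alternatives, but its log2 size depended on the scaling, at -1.53 with loess by plate and -1.66 with U6 alone. let-7a*, let-7c-1* and rno-miR-99a*, also on plate B, were higher in stroma as deposited. let-7a* was 21.2-fold higher (log2 difference 4.41, adjusted p = 4.3e-09), while let-7a differed by 0.15 (adjusted p = 0.48), a value that was called higher with U6 alone (0.86, adjusted p = 0.012) and lower with median centring (-0.96, adjusted p = 0.00067). let-7c-1* and rno-miR-99a*, whose guide strand miR-99a was itself higher in stroma, were higher by 3.01 and 3.29 on the log2 scale (adjusted p = 1.9e-08 and 7.3e-06, limma). With loess by plate these values were 0.66 and 0.13, and that of rno-miR-99a* was not called (adjusted p = 0.75). No direction is read for let-7e* in stroma, which was 0.73 (adjusted p = 0.06) as deposited, 4.28 without normalization and -4.27 with loess by plate (adjusted p = 8.8e-08 and 2.3e-07). The mouse and rat assays for miR-125b* had a Ct of 40 in all 9 epithelial samples and of 21.7 to 23.2 in stroma. These assays are on plate B, where the small RNA controls snoRNA135, U87 and snoRNA429 likewise had a Ct of 40 in all 9 epithelial samples and were detected in all 4 stromal samples, although snoRNA135 and U87 were detected in epithelium on plate A. The control snoRNA202 had a mean Ct of 16.3 on plate A and 33.7 on plate B in epithelium, against 13.9 and 13.7 in stroma. No fold is given for miR-125b*, and the part of the plate in the stromal values of plate B assays, miR-99b* included, was not tested.

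miR-351, the remaining measured miRNA with the miR-125 seed, ran opposite to miR-125b-5p in the epithelium. It was 11.58, 9.08 and 11.07 in MaSC/basal samples, 16.85, 16.31 and 15.91 in luminal progenitors and 15.78, 14.88 and 15.69 in mature luminal cells. It was 40.1-fold lower in MaSC/basal than in luminal cells (log2 difference -5.33, SE 0.53, adjusted p = 1.2e-05), and a second assay, designed for rat, gave a 15.7-fold difference in the same direction (adjusted p = 2.4e-05). The library labelled MaSC/basal 4 had 15.87, among the luminal values, and with it the log2 differences of the mouse and rat assays were -4.0 and -2.92 (adjusted p = 0.014 and 0.021, limma).

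**Figure D5:**
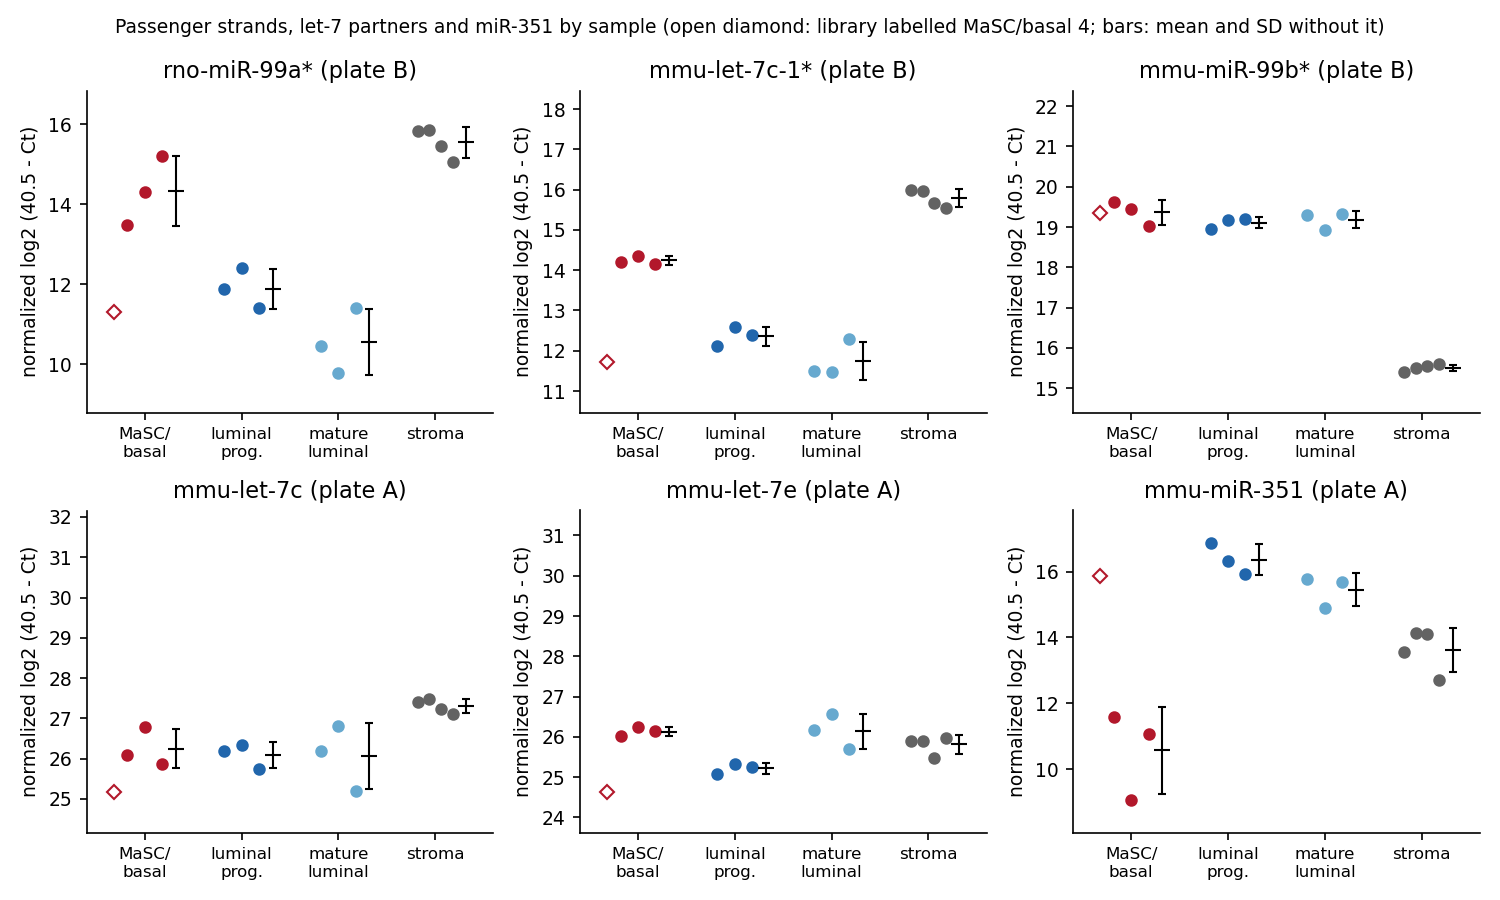
Normalized log2 levels by sample of the passenger strands rno-miR-99a*, let-7c-1* and miR-99b*, the let-7 partners let-7c and let-7e, and miR-351 (points; mean and SD per population; open diamond, the library labelled MaSC/basal 4). Each axis has its own range. The passenger strands of the miR-99a cluster are higher in MaSC/basal than in luminal samples, miR-99b* is low in all 4 stromal samples, and miR-351 is low in 3 MaSC/basal samples.

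Among the 297 assays other than the members that were detected in all 13 samples, partners in the clusters included, likeness of profile over the 13 samples was measured by the root mean square distance after centring. miR-99a was nearest to a rat assay for miR-136* (0.41), miR-434-5p (0.52) and miR-497 (0.65). miR-125b-5p was nearest to miR-218 (0.69), miR-218-2* (0.73) and miR-136* (0.81), and miR-100 to miR-218-2* (0.55), miR-136* (0.59) and let-7c-1* (0.59). miR-136* was thus among the 3 nearest to each of these guide strands. The assays for miR-136*, miR-218-2* and let-7c-1* are on plate B, whereas the members are on plate A. The part of the plate in these distances was not tested. After let-7e, miR-99b was nearest to miR-101a (0.28) and let-7a (0.30). The nearest to miR-125a-5p were miR-345-5p (0.29), miR-191 (0.35) and miR-192 (0.38), and to miR-125a-3p miR-328 (0.35), miR-361 (0.38) and miR-132 (0.39). Of these 297, the nearest to miR-125b-3p lay further off, miR-34b-3p at 1.54, miR-34c at 1.73 and miR-145 at 1.81.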

How the data were processed

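Each of the 14 sorted mouse samples was assayed by real-time PCR on 2 TaqMan rodent array plates after 12 cycles of pre-amplification. The authors deposited Ct values (PCR cycles, 40 if undetected) for 597 assay positions and normalized log2 values for 584 probes. Those deposited log2 values are Ct subtracted from 40.5, then put through cyclic loess by the authors with U6 given a weight of 100, and repeating this (span 0.7, 5 iterations) matched them to within 5.3e-14. The authors' own table of log2 differences, test statistics and p-values was not used. Probes reaching 2 in at least 3 of the 13 samples (459) entered a linear model in limma 3.58.1 (R 4.3.3; 9 residual and 1.44 prior degrees of freedom), and Benjamini-Hochberg adjustment ran over those probes at a threshold of 0.05. Differences between 2 members within samples were tested by exact two-sided permutation (scipy 1.17.1) for 10 pairs in 2 comparisons, adjusted over the 20 tests. These permutations were not restricted to mouse pools. In simulated data of 459 probes for the 13 samples, the limma fit called 8, 13 and 16 of 20 probes that had been shifted by 1, 2 and 4 log2 units, and 1 of 399 left alone. The number of samples limits the precision.

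The members and lists were chosen with earlier results of these data known. Named assays were all members, the passenger strands and let-7 partners of their clusters, measured miRNAs sharing a member's seed, and the 3 assays nearest to each member. Epithelial samples with the same number share a mouse pool by the labels. After each population's mean was subtracted, the median correlation was 0.22 between samples of 1 pool (9 pairs, 7 over 0.1) and -0.12 between samples of different pools (18 pairs). Pool was therefore also fitted as a fixed and as a random block (consensus correlation 0.20). Other alternatives were all 14 samples, the 9 epithelial samples, other scalings (none, U6, median, loess by plate), no filter, a floor of 5.5, leaving out each sample and, chosen after seeing the data, plate A assays alone and these same alternatives for the related assays. The number of mice per pool and the locus read by each miR-125b 3p assay are not given in the sources used here.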

Additional observations from a re-analysis of the deposited data

Results flagged for a closer look

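Of 34 groups of 4 samples examined for a sample far from the rest (the 7 members and 10 pair differences in MaSC/basal samples and in stroma), 9 held one by Dixon's criterion, for which chance flags about 1 in 20 groups. The pair differences are made from the same members in the same samples, so the 34 groups are not independent. In 8 of the 9 it was the library labelled MaSC/basal 4, which had already been set aside, so these flags are not separate evidence. Its normalized log2 levels were 18.90 for miR-100, 19.84 for miR-125b-5p and 2.71 for miR-125b-3p, where the other MaSC/basal samples had 22.01 to 22.61, 24.57 to 25.32 and 15.82 to 16.27. Its within-sample differences were 17.13 for miR-125b-5p minus miR-125b-3p, -13.98 for miR-125b-3p minus miR-125a-3p, -1.41 for miR-99a minus miR-99b, -1.36 for miR-100 minus miR-99b and -0.98 for miR-99a minus miR-125b-5p. In stroma the sample apart was the fourth, at -3.56 for miR-125b-3p minus miR-125a-3p against -3.05 to -2.95 in the others.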

How the results depend on the processing

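The higher level of miR-99a, miR-100, miR-125b-5p and miR-125b-3p in MaSC/basal than in luminal cells held its direction and call under 23 alternatives on the 13 samples, with log2 ranges of 2.22 to 3.40, 2.51 to 3.69, 3.51 to 4.69 and 7.18 to 9.42. With all 14 samples, 1 member was called between luminal progenitors and MaSC/basal cells, 3 between mature luminal and MaSC/basal cells, 0 between the luminal populations (2 without normalization, 1 with U6 alone) and 3 by the F-test. Leaving out 1 sample gave 4 to 5 members called between MaSC/basal and luminal cells, 4 to 6 between either luminal population and MaSC/basal cells and by the F-test, 1 to 6 between the luminal populations, 5 to 6 for stroma against MaSC/basal cells and 6 or 7 for the other stromal comparisons. With pool as a fixed replicate block, 4, 5, 4 and 4 members were called in the comparisons of MaSC/basal with luminal cells, luminal progenitor with MaSC/basal, mature luminal with MaSC/basal and mature luminal with luminal progenitor cells, and 5 by the F-test, so no count moved by over 1.5 times. With pool as a random block, 6 members were called for stroma against mature luminal cells in place of 7, and the other counts were those without it. Within pools, 9 of the 10 pair differences had 1 sign in all 3 pools, and miR-99b minus miR-125a-5p (0.66) in 2 of 3.

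U6 alone moved the median of all probes by 0.73 between MaSC/basal and luminal cells and by 1.87 between stroma and epithelium, and no normalization moved them by -0.14 and 1.67. Among called probes the share that was higher went from 57.3% to 83.3% with U6 and 47.0% with median centring between MaSC/basal and luminal cells, from 49.5% to 93.2% without normalization and 88.2% with U6 between the luminal populations, and from 58.7% to 81.9% and 82.8% for stroma. Signs turned mostly for differences that were not called, and 2 turned member values were called, both of miR-99b: stroma against epithelium with U6 (0.76, adjusted p = 0.031) and against luminal progenitors with median centring (-0.69, adjusted p = 0.018). For miR-99b they did without normalization (-0.17 between MaSC/basal and luminal cells, 0.61 for stroma against epithelium, 0.73 against MaSC/basal), with U6 (-0.22 for mature luminal against MaSC/basal, 0.76, 0.18 and 0.40 for stroma against epithelium, MaSC/basal and mature luminal cells) and with median centring (-0.30, and -0.69 for stroma against luminal progenitors). For miR-125a-5p they did with U6 (0.05 between MaSC/basal and luminal cells, -0.46 for luminal progenitor against MaSC/basal) and without normalization (0.08 for stroma against MaSC/basal). For miR-125a-3p between mature luminal and MaSC/basal cells the values were -0.79 with U6, -0.06 with loess by plate, and -0.04 without mature luminal 1, in a range of -0.04 to 0.13 over fits without 1 sample, with -0.02 without MaSC/basal 3. For miR-125b-3p, stroma against MaSC/basal, they were 1.82 over 14 samples, 0.98 without normalization and 0.44 with U6. For let-7c between MaSC/basal and luminal cells they were -0.10 over 14 samples, -0.59 without normalization, -0.72 with median centring, -0.11 without MaSC/basal 2 and -0.05 without mature luminal 3, for let-7a* -0.13 with loess by plate, and in stroma -0.96 for let-7a with median centring and -4.27 for let-7e* with loess by plate. The cause was not tested.

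Of the pair differences, 7 called between MaSC/basal and luminal samples were not called over 14 samples: miR-125b-5p minus miR-125b-3p (-1.74), miR-125b-5p minus miR-125a-5p (3.22), miR-125b-3p minus miR-125a-3p (4.29), miR-99a and miR-100 minus miR-99b (1.77, 2.04), and miR-99a and miR-100 minus miR-125b-5p (-1.02, -0.75). The arm difference of miR-125a was called without normalization (-1.31) and with loess by plate (-0.87). For stroma, miR-125b-5p minus miR-125b-3p turned to -1.84 without normalization and -0.31 with loess by plate, and miR-99a minus miR-125b-5p to 0.03 without normalization. Leaving out a luminal sample leaves 3 against 5 samples, whose smallest p no longer passes the adjustment, and the differences kept their signs. Without 1 sample, the differences between MaSC/basal and luminal samples ranged from -4.18 to -3.08 for miR-125b-5p minus miR-125b-3p, 4.13 to 4.98 for miR-125b-5p minus miR-125a-5p, 6.64 to 8.16 for miR-125b-3p minus miR-125a-3p, 2.19 to 2.70 and 2.50 to 3.0 for miR-99a and miR-100 minus miR-99b, 0.23 to 0.36 for miR-100 minus miR-99a, and -1.52 to -1.27 and -1.29 to -1.01 for miR-99a and miR-100 minus miR-125b-5p. For stroma they ranged from -0.53 (called, without stroma 3) to -0.23 for miR-100 minus miR-99a and from 0.82 to 1.06 for miR-99b minus miR-125a-5p.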
